A study of Bos taurus with 16 samples.

Results

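Genes for 10 receptors and regulators of natural killer cells were followed in CD14+ cells that had been sorted from endometrium and from blood of 4 cows in pregnancy. The genes were KLRB1, KLRD1, KLRK1, NCR1, CD7, CD96, SH2D1A, XCL1, TBX21 and EOMES. They were chosen by name, from the gene name or the symbol in brackets that the array's design gives each probe, and make up 10 of the 20602 gene names on the array. The design lists CD7 as LOC510073 and CD96 as MGC127696. The name rule found 9 of the 10 genes, and SH2D1A was found through its accession because the design names it MGC128725. Each gene had 1 probe under this rule, and all 10 probes passed the filter on dim probes.

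Animals 1, 2, 3 and 4 were at days 164, 239, 242 and 248 of pregnancy, and both tissues of a cow were taken at slaughter. The endometrial cells came from enzyme-dispersed endometrium between the placentomes and the blood cells from mononuclear cells of blood left in the heart, and both were sorted for surface CD14 by flow cytometry. By the labels, the sorted blood cells were purer than the endometrial ones. The RNA was amplified before labelling, and the 2 tissues of an animal were hybridized together on 2 Agilent bovine arrays with 2 colours, with the dyes swapped in 3 of the 4 animals. All values are log2 intensities after normalization, called levels, or differences of levels within an animal, called log2 ratios of endometrium over blood.

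Natural killer cells are lymphocytes that kill infected or altered cells without prior priming and secrete cytokines, and they read other cells through paired activating and inhibitory receptors. In the uterus of pregnant mammals they are found among the leukocytes that lie next to the placenta. Most of the 10 genes are shared with subsets of T cells, NCR1 being the closest to a marker of natural killer cells alone in cattle, and monocytes and macrophages are not their main source.

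The probes of the 3 lectin-like receptors are shown because the receptors are related proteins, so that a reader can see how much sequence the probes have in common. Each probe has 60 bases and is printed 5′ to 3′ as the scanner files give it, and capitals mark the longest run that the probes of KLRB1 and KLRD1 share.
KLRB1: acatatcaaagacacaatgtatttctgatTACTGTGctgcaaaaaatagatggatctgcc
KLRD1: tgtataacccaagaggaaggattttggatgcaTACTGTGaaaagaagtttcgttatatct
KLRK1: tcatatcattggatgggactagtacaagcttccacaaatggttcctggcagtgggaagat
The shared run is 7 bases long. The longest exact run shared with any other probe of the array was 13 bases for KLRB1, 15 for KLRD1 and 13 for KLRK1. In the gene order of assembly ARS-UCD2.0, KLRK1 and KLRD1 are direct neighbours and KLRB1 follows with 30 genes between. XCL1 lies beside XCL2, its close paralog, so the XCL1 probe may read both and its values are uncertain to that extent.

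Over the whole array, 16653 probes were tested with limma. A probe was called where its fold change exceeded 2 and its adjusted p did not exceed 0.05, as 11 of them did. The share of spots well above background lay between 65.2% and 82.9% in a channel, and no spot was saturated. The markers of cell types set animal 1 apart from animals 2 to 4. CD14, the surface protein used for the sort, had levels of 12.17 in the endometrial and 14.24 in the blood cells of animal 1, and of 6.31 to 8.14 in the other 6 samples. CD68, a lysosomal protein of macrophages, was likewise higher in animal 1. CD3E, a chain of the T cell receptor complex, had levels of 8.81 and 7.19 in the endometrial and blood cells of animal 1, against 11.26 to 13.43 in the other samples. Thus the transcript of the sorting marker was far lower in both tissues of 3 animals than in animal 1, and the ratio of each of the 10 genes is given with and without animal 1.

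The 10 genes were low where CD3E was low and CD14 high. In both tissues, 8 of the 10 had their lowest level in animal 1 with every channel of the other animals well above background, a pattern seen after the fact that holds for 15.9% of all probes tested. TBX21 and EOMES were lowest in animal 1 in blood. In endometrium TBX21 was at background in animal 3 alone, so that its levels in animals 1 and 3 have no order. EOMES was at background there in animals 1 and 3 and partly in animal 2, so that its levels in animals 1, 2 and 3 have no order. The median level of the 10 genes in the endometrial cells was 7.06 in animal 1 and between 9.78 and 11.66 in the others. In the blood cells it was 6.27 in animal 1 and between 8.75 and 9.69 in the others. The gap between animal 1 and the lowest of the other animals was widest for XCL1, CD96, KLRK1 and KLRD1 in blood, where it lay between 3.33 and 3.53, and was only 0.089 for SH2D1A in endometrium, less than the largest difference in ratio between the 2 arrays of an animal for this gene. Of the 160 channel values of the 10 genes, 14 were not well above background and 9 of these belonged to animal 1, among them both blood channels of KLRK1. Of the lists of cell markers, 6 of 10 T cell genes and 2 of 9 B cell genes were lowest in animal 1 in both tissues by the same count. In both tissues 9 of 10 monocyte and macrophage genes were highest in animal 1, with every channel of that animal well above background. The share of all probes that were highest there was not counted, so this count has no background to be read against. Day of pregnancy and animal cannot be told apart, since animal 1 alone was sampled at day 164, and in sorted bulk cells fewer cells of a type and less RNA per cell cannot be told apart either. The part of the cell makeup in the results that follow was not tested.

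**Figure D1:**
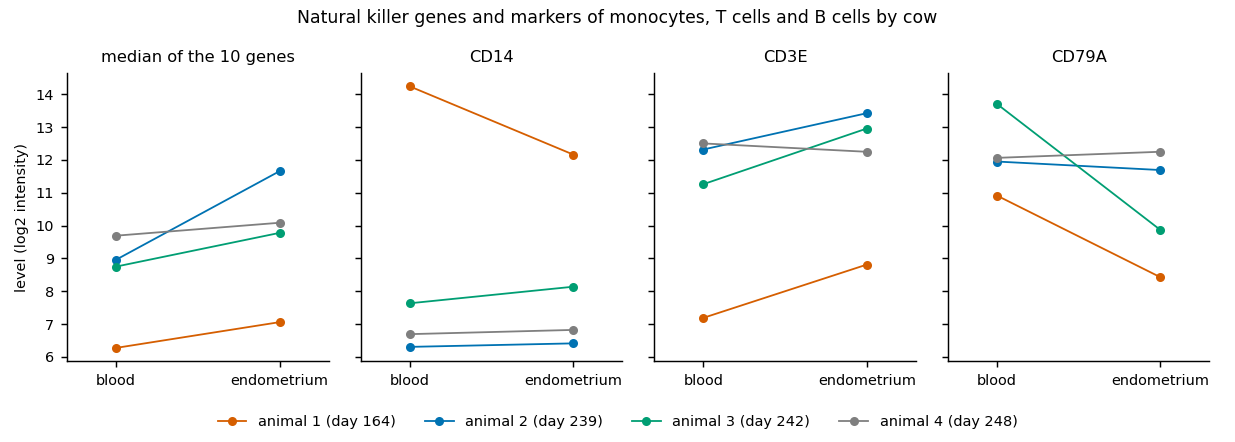
Level (log2 intensity, vertical axis) in blood and endometrial cells, each line being 1 cow. The median of the 10 genes and CD3E are lowest in animal 1 in both tissues, CD14 is highest there, at 14.24 in blood and 12.17 in endometrium, and CD79A, a B cell marker, is higher in blood than in endometrium in animals 1, 2 and 3.

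Between the tissues, CD7, CD96, KLRB1 and XCL1 had mean levels 2.50 to 8.49 fold higher in endometrial than in blood cells, KLRK1 and KLRD1 were higher there by less than 2 fold, and the log2 ratios of NCR1, SH2D1A, TBX21 and EOMES lay between -0.59 and 0.002. With limma, 0 of the 10 genes were called, against 0.0661% of all probes, and the lowest adjusted p among them was 0.262. At an unadjusted p up to 0.05 and a fold change over 2, the 4 genes CD7, CD96, KLRB1 and XCL1 passed, all higher in endometrium, as did 5.27% of all probes, and 0 passed as higher in blood, where 5.11% of all probes did. These same 4 were higher in endometrium in every animal, against 10.2% of all probes, and 1, NCR1, was higher in blood in every animal, against 14.7%. With animal 1, 2 or 3 left out, CD7 and CD96 passed and KLRB1 and XCL1 did not. The share of all probes that passed in these fits was not counted, so these passes have no background to be read against. For 0 of the 10 did the endometrial levels lie wholly above the blood levels, against 2.41% of all probes. The median log2 ratio of the 10 genes was 0.67, and that of all probes tested was -0.023.

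**Figure D2:**
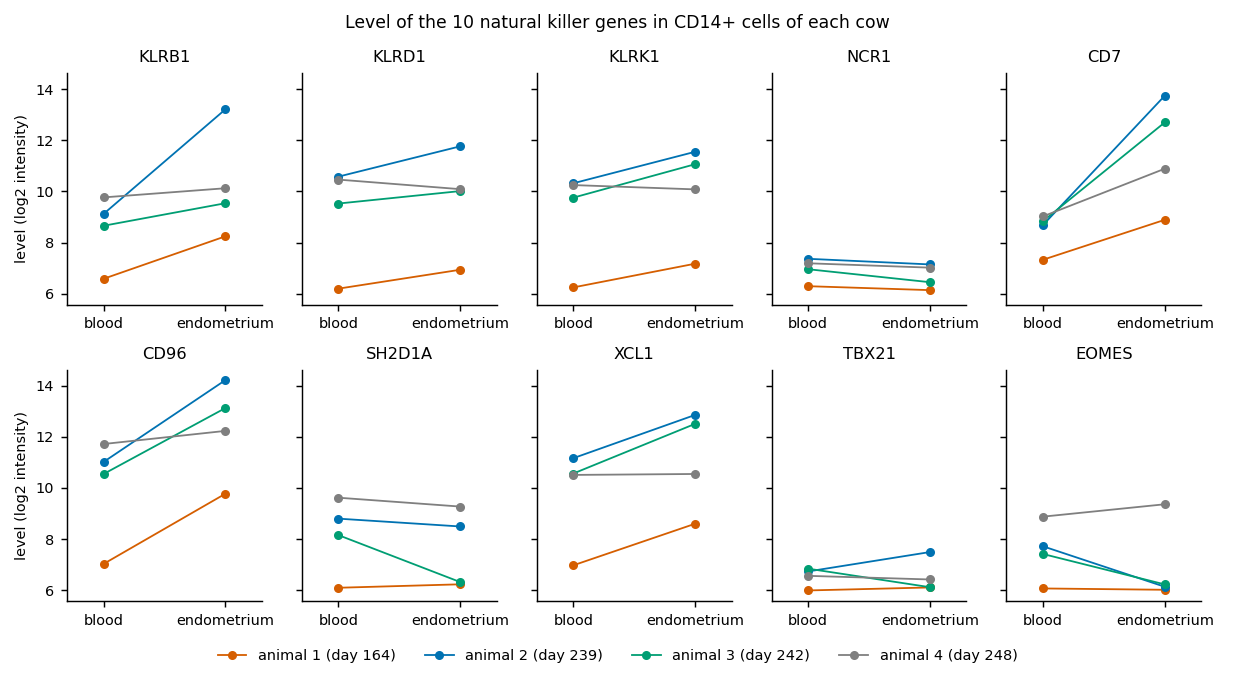
Level (log2 intensity, vertical axis) of each of the 10 genes in blood and endometrial cells, each line being 1 cow and each point the mean of 2 arrays. Lines rise in all 4 cows for KLRB1, CD7, CD96 and XCL1, fall in all 4 for NCR1, and animal 1 is the lowest line for 8 genes, while the endometrial levels of TBX21 and EOMES near 6 are partly at background and have no order.

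The 3 lectin-like receptors had log2 ratios of different size. KLRB1 (XM_612914), an inhibitory receptor of natural killer cells and some T cells, had endometrial levels of 8.25, 13.21, 9.54 and 10.13 in animals 1 to 4 and blood levels of 6.59, 9.12, 8.66 and 9.77. The tissues overlapped, and the difference was far larger in animal 2 than in the rest. Its log2 ratio averaged 1.75 (SE 0.64, 95% interval 0.13 to 3.37, unadjusted p = 0.0389, adjusted p = 0.306 with limma), with values of 1.66, 4.09, 0.88 and 0.36 in the 4 animals. Without animal 1 it was 1.78 and without animal 2 it was 0.97, so that only with animal 2 did it exceed 2 fold.

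KLRD1 (NM_001002890), which pairs with NKG2 chains to bind class I molecules, had endometrial levels of 6.94, 11.77, 10.02 and 10.09 and blood levels of 6.20, 10.58, 9.53 and 10.47. Animal 4 was the only one with a lower level in endometrium. On average the log2 ratio was 0.51 (SE 0.31, adjusted p = 0.476 with limma), with an interval of -0.28 to 1.30 that includes 0. Without animal 1 it was 0.43, and it was 0.28 without animal 2 and 0.80 without animal 4.

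KLRK1 (XM_870894), the activating receptor for stress-induced ligands of the MIC and ULBP families, had endometrial levels of 7.18, 11.55, 11.07 and 10.08 and blood levels of 6.25, 10.32, 9.76 and 10.25. Both blood channels of animal 1 were not well above background, so its ratio of 0.93 is bound by that floor, and in the authors' log2 values it was 3.20. The ratios were 1.23 and 1.31 in animals 2 and 3, and animal 4 stood at -0.17. The mean log2 ratio was 0.82 (SE 0.32, unadjusted p = 0.0463, adjusted p = 0.32 with limma), below 2 fold, and without animal 1 it was 0.79. The design gives 2 probes the gene name KLRC and this accession, and only the one above carries the symbol KLRK1. The other had a log2 ratio of 0.52 (adjusted p = 0.382 with limma), with 0.28, 1.13, 0.28 and 0.38 in the 4 animals. The 2 probes differed in sign in animal 4.

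NCR1 (NM_183365) codes for an activating receptor of the immunoglobulin family. Its endometrial levels were 6.14, 7.15, 6.45 and 7.02, and its blood levels 6.30, 7.37, 6.96 and 7.19. These levels span little more than 1 log2 unit over all 8 samples, and the ratios were -0.16, -0.22, -0.51 and -0.17, where the ratios of an animal's 2 arrays differed by a median of 0.14 for this gene. Both the span and the ratios depended on the processing. In the authors' log2 values the levels ran from 4.65 to 8.49 and the ratios were -1.21, -0.41, -1.55 and -0.39. With no offset the mean log2 ratio was -0.62. The mean log2 ratio was -0.26 (SE 0.21, adjusted p = 0.568 with limma), with an interval of -0.78 to 0.25, and without animal 1 it was -0.30.

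CD7 and CD96, surface receptors of the immunoglobulin family on T and natural killer cells, had the largest ratios of the 10 genes. CD7 (XM_587164) had endometrial levels of 8.89, 13.75, 12.70 and 10.89 and blood levels of 7.33, 8.69, 8.84 and 9.03. The tissues overlapped, since the endometrial level of animal 1 was below the blood level of animal 4. The mean log2 ratio of CD7 was 3.09 (SE 0.65, unadjusted p = 0.00412, adjusted p = 0.262 with limma), an 8.49-fold difference. It ranked 81 of the 16653 probes tested, and without animal 1 it was 3.59 (adjusted p = 0.419 with limma). The ratios of the animals were 1.56, 5.06, 3.86 and 1.86.

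CD96 (NM_001035072), which binds the nectin-like protein PVR, had endometrial levels of 9.77, 14.21, 13.12 and 12.23 and blood levels of 7.03, 11.01, 10.54 and 11.72. The tissues overlapped here as well, since the endometrial level of animal 1 was below the blood levels of the other animals. A mean log2 ratio of 2.26 was found for CD96 (SE 0.49, unadjusted p = 0.00453, adjusted p = 0.262 with limma), a 4.79-fold difference, with an interval of 1.04 to 3.48 and ratios of 2.74, 3.20, 2.58 and 0.51. Without animal 1 it was 2.097 (adjusted p = 0.419 with limma).

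SH2D1A (NM_001034733), the adaptor that links receptors of the SLAM family to the kinase Fyn, was lower in endometrium in 3 animals. It had endometrial levels of 6.23, 8.49, 6.32 and 9.27 and blood levels of 6.10, 8.80, 8.15 and 9.62. Its mean log2 ratio was -0.59 (SE 0.38, adjusted p = 0.491 with limma), and animal 3, at -1.83, gave most of it, since without that animal the ratio was -0.17. Without animal 1 it was -0.83.

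XCL1 (NM_175716), a chemokine that natural killer and CD8 T cells secrete to attract cross-presenting dendritic cells, had endometrial levels of 8.60, 12.85, 12.50 and 10.54 and blood levels of 6.97, 11.16, 10.56 and 10.51. The ratios were even in animals 1 to 3, at 1.63, 1.69 and 1.94, and animal 4 stood at 0.037, within the difference of up to 0.33 between the 2 arrays of an animal. In the authors' log2 values animal 4 stood at -0.029, so that XCL1 was higher in endometrium in 3 of 4 animals there. For XCL1 the mean log2 ratio was 1.32 (SE 0.38, unadjusted p = 0.0151, adjusted p = 0.262 with limma), a 2.50-fold difference, and without animal 1 it was 1.22. Its receptor gene XCR1 was not well above background in enough channels to be tested.

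Both T-box factors that direct the natural killer program were near background in some samples. TBX21 (XM_583748) was well above background in 6 of 8 channels of each tissue, with endometrial levels of 6.11, 7.49, 6.12 and 6.42 and blood levels of 5.99, 6.73, 6.84 and 6.56. It was higher in endometrium in animals 1 and 2 and lower in animals 3 and 4, and its log2 ratio was 0.002 (SE 0.30, adjusted p = 0.999 with limma) with an interval of -0.75 to 0.76. Without animal 1 it was -0.036. In the authors' log2 values the ratios of TBX21 in animals 1 to 4 were 1.48, 1.43, -3.98 and -0.36. The interval above therefore holds for the main processing only.

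EOMES (XM_866268) was well above background in 3 of 8 endometrial and 7 of 8 blood channels. Its endometrial levels were 6.02, 6.13, 6.23 and 9.36 and its blood levels 6.07, 7.72, 7.42 and 8.88. In animals 2 and 3 the blood level was above the endometrial one, whose signal was not well above background in 3 of the 4 endometrial channels, so that the measured ratios of -1.58 and -1.19 are set by that floor, while animal 4 had the highest level of both tissues. Over the 4 animals the log2 ratio averaged -0.59 (SE 0.41, adjusted p = 0.526 with limma), with an interval of -1.61 to 0.44. The value was -0.76 without animal 1, -0.25 without animal 2 and -0.94 without animal 4. With no offset in the background correction it was -1.31. With the scanner's processed signals, which also differ in normalization, it was -2.10.

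**Figure D3:**
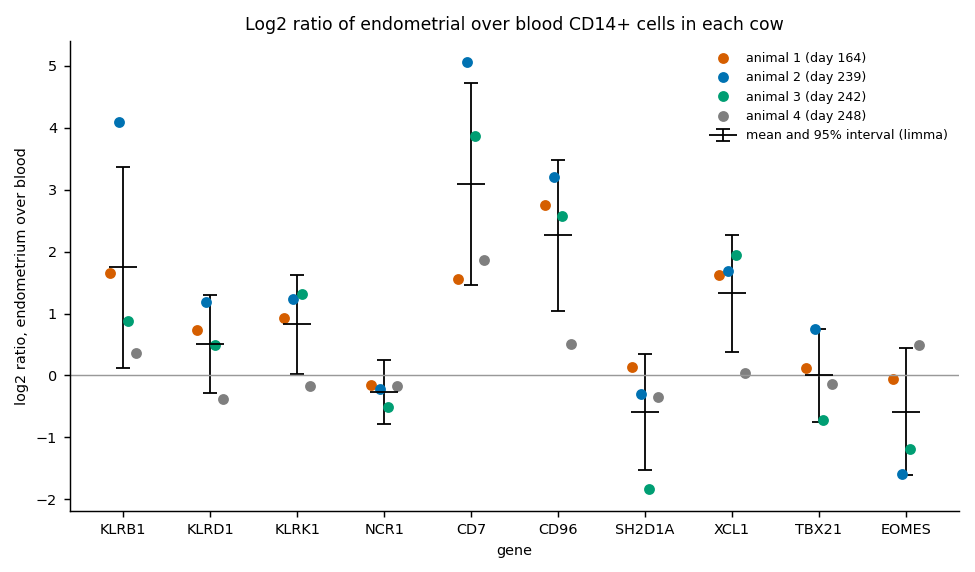
Log2 ratio of endometrium over blood (vertical axis) for each of the 10 genes, with a point for each cow and a bar for the mean and its 95% interval from limma. CD7 and CD96 have the highest means, 3.09 and 2.26, and animal 4 has the lowest ratio for KLRB1, KLRD1, KLRK1, CD96 and XCL1.

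The animals did not contribute alike. From animal 1 to animal 4, the numbers of genes with a ratio above 0 were 8, 7, 6 and 5 of 10. The median ratio of the 10 genes was 0.83, 1.21, 0.69 and -0.052 in the same order, and that of all probes tested lay between -0.087 and -0.022. In animal 4 only CD7 exceeded 2 fold, at 1.86. The log2 ratios of all probes also spread least in animal 4, with an SD of 0.71 against 1.00 to 1.49 in the other animals. Without animal 4 the ratio of KLRK1 was 1.16, and 5 of the genes passed the unadjusted p with a fold change over 2, all higher in endometrium, as did 6.15% of all probes in that fit.

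The levels of the genes varied together across samples to different degrees. Because animal 1 stood apart, Pearson's r is given over the 6 samples of animals 2 to 4, as a description of few samples that share animals and arrays. It was 0.96 between KLRK1 and XCL1, 0.96 between CD7 and CD96 and 0.92 between KLRK1 and CD96. NCR1 and SH2D1A, both lower in endometrium, had an r of 0.85 with each other and of -0.38 and -0.63 with XCL1. EOMES had r below 0 with the 6 genes of highest ratio, down to -0.88 with XCL1, while with SH2D1A it had an r of 0.76. The endometrial EOMES levels of animals 2 and 3, 6.13 and 6.23, were mostly not well above background, and that of animal 4 was 9.36. The r values of EOMES are bound by that floor. With animal 1 included, r was above 0 for every pair but CD7 and EOMES.

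Of all other probes tested, the 10 most like the mean profile of the genes over all 8 samples had r of at least 0.97 with it, and of 0.85 to 0.99 over the 6 samples without animal 1. They were a T cell receptor gamma chain (LOC530015), CST7, MSI2, PRF1, KIT, a GTPase of the IMAP family (LOC510055), CD2, CD3E and 2 transcripts without a gene name, AW659965 and CB442179. CST7 codes for an inhibitor of cathepsins in cytotoxic cells, PRF1 for the pore-forming protein of their granules and KIT for the stem cell factor receptor. The log2 ratios of these 10 probes lay between 0.82 and 1.65 and none was called. Over the 4 animals' log2 ratios alone, r with the mean of the genes was lower for CD3E, PRF1 and MSI2, at 0.55, 0.65 and 0.72. For the rest it lay between 0.80 and 0.99.

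Among the other receptors of natural killer cells, 14 of 31 listed genes were tested. Of these 0 were called, 4 passed the unadjusted p with a fold change over 2, all higher in endometrium, where 5.27% of all probes passed, and the median log2 ratio was 0.102. CD2, the adhesion receptor for CD58, had a log2 ratio of 1.52 (adjusted p = 0.262 with limma), with values from 0.27 to 2.73. FCGR3A, the Fc receptor of antibody-dependent killing that macrophages also carry, had a log2 ratio of 1.35 (adjusted p = 0.28 with limma), below 0 in animal 1 alone. KIR2DL1, a killer cell immunoglobulin-like receptor, had one of 1.77 (adjusted p = 0.305 with limma), with 3.83 and 2.43 in animals 2 and 3 and 0.45 and 0.37 in animals 1 and 4. NCR3 and KLRA1 of the same list were over 2 fold lower in endometrium. Their log2 ratios were -1.35 (adjusted p = 0.374 with limma) and -1.05 (adjusted p = 0.335 with limma), and each was higher in endometrium in only 1 animal.

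For 15 adaptors and kinases next to these receptors the median log2 ratio was 0.036, with 0 called. Of the 15, 1 passed the unadjusted p with a fold change over 2, higher in endometrium, where 5.27% of all probes passed. That 1 was CD247, the zeta chain through which NCR1 and the T cell receptor signal, with a log2 ratio of 1.19 (adjusted p = 0.262 with limma). Its ratio was above 0 in every animal, as for 10.2% of all probes. PTPN6, the phosphatase recruited by inhibitory receptors, had a log2 ratio of 1.28, from 0.38 to 3.58, and TXK, a kinase of T and natural killer cells, one of 1.56, with -1.25 in animal 4. Their adjusted p with limma were 0.377 and 0.385.

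For 11 genes of cytotoxic effector proteins the median log2 ratio was 1.59. Of these, 1 was called, the granzyme A gene gzmA, at a log2 ratio of 5.95 (adjusted p = 0.0450 with limma) and at least 4.73 in each animal. Another 5 passed the unadjusted p with a fold change over 2 and were higher in endometrium, against 5.27% of all probes, and 1, the granule proteoglycan SRGN, was lower there, against 5.11%.

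Secreted cytokines and chemokines other than XCL1 had a median of -0.36 over 6 genes, none over 2 fold. The receptors for cytokines and chemokines had a median of 0.094 over 10 genes tested. CXCR6, a homing receptor of lymphocytes resident in tissue, had a log2 ratio of 2.22 (adjusted p = 0.262 with limma), with 3.07, 3.63, 2.15 and 0.042 in animals 1 to 4. IL12RB2, the signalling chain of the IL-12 receptor, had one of -1.05 (adjusted p = 0.36 with limma).

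Besides TBX21 and EOMES, 9 transcription factors of natural killer and T cells had a median log2 ratio of -0.48, with 0 called. STAT4, which conveys the IL-12 signal, had a log2 ratio of -1.37 (adjusted p = 0.262 with limma) and PRDM1, a regulator of late lymphocyte differentiation, one of -1.57 (adjusted p = 0.276 with limma). Both were lower in endometrium in 4 of 4 animals, as were 14.7% of all probes. Both passed the unadjusted p with a fold change over 2, as did 5.11% of all probes in that direction. The ligands and partners of the receptors had a median of -0.21 over 9 genes. MIC1, a MIC gene of the family that KLRK1 binds, had a log2 ratio of -1.15 (adjusted p = 0.262 with limma). It too was lower in endometrium in 4 of 4 animals, against the same 14.7% of all probes.

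The markers of other cells moved between the tissues as well. For 10 T cell markers the median log2 ratio was -0.34, although CD3E itself had one of 1.04 (adjusted p = 0.309 with limma). Of these markers 0 were higher in endometrium in every animal, against 10.2% of all probes. Their mean level was 6.65 to 9.94 in endometrium and 6.28 to 10.57 in blood. B cell markers had a median of -1.60 over 9 genes and CD79A one of -1.60. Granulocyte markers had a median of -1.06 over 6 genes, of which CSF3R had -4.81 in animal 1 and values from -0.19 to -0.16 in the others. Monocyte and macrophage markers had a median of 2.40 over 10 genes, while CD14 had a log2 ratio of -0.33, with -2.08 in animal 1 and 0.11 to 0.51 in the others. Markers of trophoblast had a median of 3.17 over 11 genes, with CSH1 at 3.93, those of epithelium one of 2.84 over 10, with KRT18 at 3.21, and those of stroma one of 1.66 over 9, with COL1A1 at 2.51. Stroma rested on animal 1, with a median of 5.08 there and of 0.009 to 1.65 in the others, and without animal 1 its median was 0.90 and COL1A1 stood at 1.46. Without animal 1 the granulocyte median was -0.044 and the T cell median was -0.52, as a choice made after the data were seen. The medians of cytokines and chemokines and of ligands and partners then turned to 0.18 and 0.14, and that of adaptors and kinases turned to -0.094. Among these lists 5 genes were called, all of the trophoblast. The part of these differences in the ratios of the natural killer genes was not tested.

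**Figure D4:**
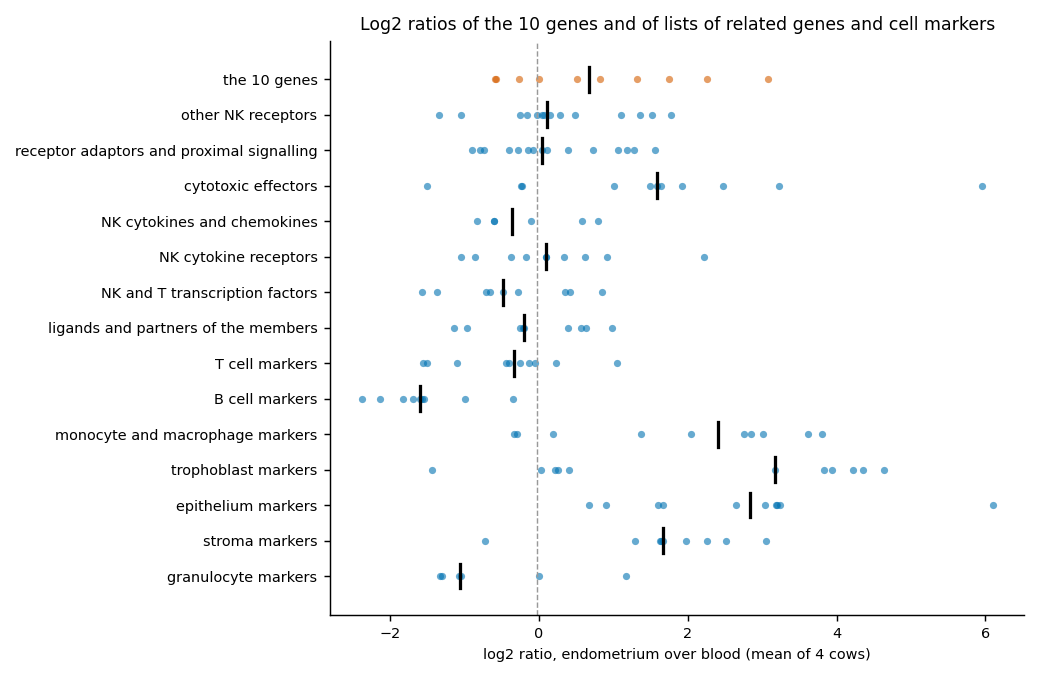
Log2 ratio of endometrium over blood, mean of 4 cows (horizontal axis), with a point for each gene tested and a black bar for the median of each list. The dashed line is the median of all probes tested, -0.023. The 10 natural killer genes spread from -0.59 to 3.09, cytotoxic effectors have a median of 1.59 and T cell markers one of -0.34.

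In the log2 values that the authors deposited, the 10 genes kept the sign of their mean ratio except TBX21. CD7 had a log2 ratio of 3.41 (adjusted p = 0.0887 with limma), CD96 one of 2.51, KLRB1 one of 2.14, XCL1 one of 1.57, KLRK1 one of 1.42 and KLRD1 one of 0.93. EOMES had one of -2.12, with a blood mean of 8.09 against an endometrial mean of 5.97, and NCR1 one of -0.89. Of the 10 genes, 0 were called, against 1.35% of all probes, and 5 passed the unadjusted p with a fold change over 2, against 16% of all probes, with EOMES as the 1 that was lower in endometrium. All 10 genes differed more between the tissues in these values than in those above, and the cause was not tested. All probes tested had a median log2 ratio of -0.14 in them.

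**Figure D5:**
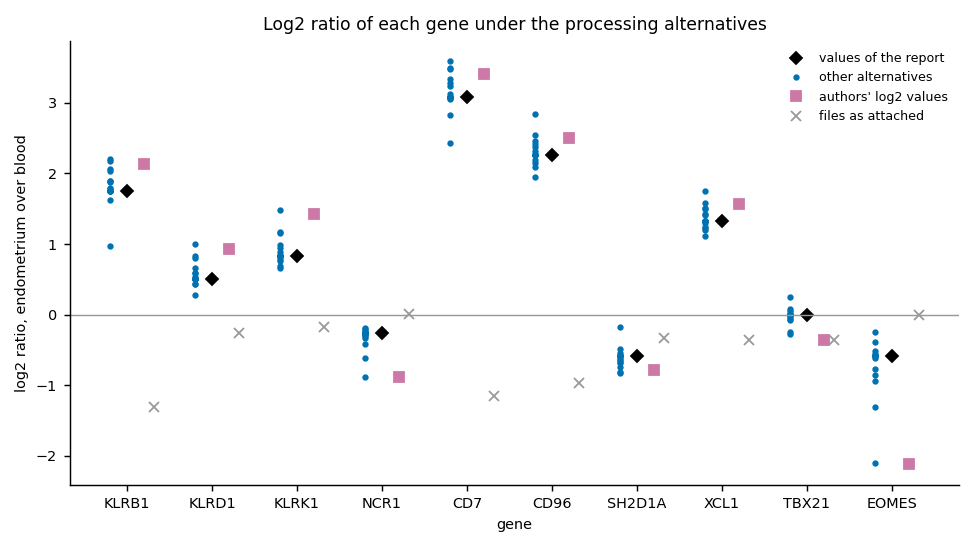
Log2 ratio of endometrium over blood (vertical axis) for each of the 10 genes as reported, in the authors' log2 values, with the scanner files read as attached and under the other alternatives. CD7 stays between 2.43 and 3.59 and CD96 between 1.95 and 2.84 outside the reading of the files as attached, in which both fall below 0.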

How the data were processed

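The arrays compared the 2 tissues within each of 4 cows, in 16 samples on 8 arrays. The authors' scanner files, made per the file headers with Feature Extraction 10.5.1.1, give each spot's median intensity and local background in both dyes, not normalized, and a processed intensity. The submitters' processing notes name version 9.5. The authors also deposited a table of log2 values, which their methods describe as lowess and quantile normalized. All 16 columns of that table have a median of 8.00.

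Each column was compared with its animal's scanner files by rank. The column's own sorted values were given to the spots in the order of a channel's processed intensity, then averaged per probe. So compared, each column matched the labelled dye of its animal's other technical replicate at 100% of probes within 0.001. For the file attached to it, at most 0.689% matched. Before averaging, 40.9% to 41.0% of spots matched, against at most 0.479% for the attached file. The files were read accordingly. The genes were to be read from that table. Scanner intensities were the main values here because they keep background flags, and the table is given beside them. With limma 3.58.1 in R 4.3.3, median intensities were corrected by normexp (offset 50), then loess and quantile normalized. Control spots and 3 to 20 outlier spots per array were dropped, and a probe's spots were averaged. Ratios per animal, the mean of 2 arrays, were tested against 0 with lmFit and eBayes over 16653 probes well above background in at least 4 of 8 channels of a tissue, with Benjamini-Hochberg adjustment. A 2-sided exact permutation over 4 pairs cannot give a p under 0.125. The pairing comes from the animal numbers in the labels, and deviations of an animal's tissues correlated with r of 0.21 to 0.62. Fits were tested on simulated data.

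The genes named were all 10, and from each list the called genes, or else up to 3 over 2 fold with the lowest p, and for cell markers 1 defining gene. SRGN, NCR3 and KLRA1 were named after their values were seen. Names came from the files or from ARS-UCD2.0. The genes and lists were chosen with earlier results of these data known. Animal 1 was singled out after its values were seen. The number of arrays limits precision. Sequences of transcripts and proteins were not used here.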

Additional observations from a re-analysis of the deposited data

Results flagged for a closer look

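Each gene's 4 ratios, 4 endometrial levels and 4 blood levels were searched for a value far from the other 3, by Dixon's test. Of 30 such sets 4 held one. Chance gives about 1 in 20 for independent sets, but these share animals and values, so that the 2 cannot be compared. The blood level of animal 1 stood apart for KLRK1, at 6.25 against 9.76 to 10.32 in the other animals, and for XCL1, at 6.97 against 10.51 to 11.16. The XCL1 ratio of animal 4 stood apart at 0.037, against 1.63 to 1.94. The endometrial EOMES level of animal 4 stood apart at 9.36, against 6.02 to 6.23, and animal 4 was the only one with EOMES well above background in both endometrial channels.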

How the results depend on the processing

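None of the 10 genes was called under any alternative except the fit of all 8 arrays with the dye and a random animal block, which called 2, CD7 (adjusted p = 0.0141 with limma) and CD96 (adjusted p = 0.0192). That fit called 792 of the 16653 probes tested, 455 of them higher in endometrium, against 11. It enters both arrays of each animal, which are technical replicates, with 1 correlation shared by all probes. Its p-values therefore do not rest on the 4 animals alone, and its calls are no added support for the 2 genes. Without the animal as a pair (no replicate block), 1 of the genes, CD7, instead of 4 passed the unadjusted p with a fold change over 2, and 4 probes were called on the array. The methods' analysis of variance gave 2 of the genes and called 0 probes. With 1 animal left out in turn, 2 to 5 of them passed, 2 without each of animals 1, 2 and 3, and 0 probes were called. The share of all probes that passed was counted only for the fit without animal 4, where it was 6.15%. The number of probes called was 50 without background correction, 161 with normexp at offset 0, 171 with processed signals (159 higher in endometrium), 224 in the authors' log2 values (204 higher), 44 with all 8 channels of a tissue above background, 20 on slide 2, and 5 each with loess only, without a filter and on slide 1. Processed signals shifted the median of all ratios to -0.13, from -0.023. TBX21 changed sign, to -0.073 without background correction, -0.06 at offset 0, -0.28 with processed signals, -0.36 in the authors' values and -0.01 on slide 1, and ranged from -0.25 to 0.24 with 1 animal left out. With the scanner files read as attached, 0 genes passed the unadjusted p, 0 probes were called, and the ratios were -1.31 for KLRB1, -0.27 for KLRD1, -0.17 for KLRK1 (-0.38 for its second probe), 0.01 for NCR1, -1.16 for CD7, -0.97 for CD96, -0.35 for XCL1 and -0.36 for TBX21. That reading exchanges the tissues on the arrays of the 3 dye-swapped animals. The other causes were not tested. The other 9 genes kept their sign under all alternatives but the files as attached. Array number and the dim signals of TBX21 and EOMES limit these values.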
